A study of Mus musculus with 6 samples.

Results

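Rusc2 and 8 other genes of vesicle trafficking were followed in the liver of antibiotic-treated (ABX) mice under a short day, to ask whether the rise of Rusc2 was shared. The 9 genes are Rusc2, Rab2a, Clta, Chmp5, Stx17, Sdcbp, Dctn3, Kif5b and Capza2, which name 9 of the 55357 rows of the count table, and all 9 were among the 7261 rows with enough counts to be tested. Rusc2 was chosen by its rise under SD in these same libraries, so its own difference is given as a description, with no test. The other 8 were listed by their function and by a position that agrees between the mouse genome builds GRCm38 and GRCm39 (an agreeing position). Earlier results of these data were known when they were listed, so the list was not made blind to the values. Agreement was within 10 bp, except that for Kif5b it was judged mainly by its neighbours, as described below. Position was used because the labels and the methods name different builds and most genes lie elsewhere in the one than in the other.

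Liver RNA was sequenced from 3 ABX mice kept under SD, a cycle with 8 h of light and 16 h of darkness, and from 3 ABX mice kept under NLD, the normal cycle with 12 h of each, with 1 library per mouse. All 6 were C57BL/6 mice (C57BL/6N in the methods) that had received a cocktail of antibiotics to deplete the gut microbes, so that NLD mice carried this treatment too, and the labels give Day 28 for all of them. The methods give a longer experimental period, so that the length of exposure to SD is not settled by these sources. The age is not stated in the labels. According to the methods, the mice were fasted before sampling and killed in the same hours of the morning, so each library shows 1 time of the daily cycle.

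Cargo moves between organelles in vesicles that are pinched off with the help of coats such as clathrin, directed by small GTPases of the Rab family, carried along microtubules by kinesin and dynein motors, and fused with their target by SNARE proteins. ESCRT proteins bud and cut membranes away from the cytosol, into the lumen of endosomes. In the liver these routes serve the secretion of plasma proteins and lipoproteins, the uptake of ligands from blood and autophagy during fasting. Rusc2, also called iporin, has a RUN and a SH3 domain and binds Rab1 and the Golgi protein GM130. In human cells, RUSC proteins couple vesicles formed by the adaptor AP-4, which carry the autophagy protein ATG9A, to kinesin-1.

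In the GRCm39 annotation Rusc2 (ENSMUSG00000035969) lies on the plus strand of chromosome 4 from 43381979 to 43427088. Of the other 8 genes, 6 lie on chromosome 4 too, from Sdcbp, which starts at 6365547, to Stx17, which ends at 48186507, and Capza2 lies on chromosome 6 from 17636233 to 17667148. The promoter windows of RefSeq on GRCm38.p6, each with 250 bases before and 50 after an annotated start, are shown for Rusc2 because it is the gene the question turns on, for Clta because its difference lay farthest in the other direction, and for Dctn3 as a motor gene whose interval leaves out a rise of that size. Each is written 5′ to 3′ on the strand of its gene, and capitals mark the letters of a motif found on either strand (GGGCGG of the GC box, CCAAT or its complement ATTGG, TGACGTCA of the cyclic AMP response element).
Rusc2, chr4:43381732-43382031, plus strand: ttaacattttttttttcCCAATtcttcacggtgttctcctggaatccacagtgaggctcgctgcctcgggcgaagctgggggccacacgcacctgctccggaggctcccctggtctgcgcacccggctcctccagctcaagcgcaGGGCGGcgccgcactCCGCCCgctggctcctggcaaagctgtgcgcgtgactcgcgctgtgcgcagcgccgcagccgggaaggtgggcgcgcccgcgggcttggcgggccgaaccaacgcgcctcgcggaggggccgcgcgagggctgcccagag
Rusc2, inner start, chr4:43406252-43406551, plus strand: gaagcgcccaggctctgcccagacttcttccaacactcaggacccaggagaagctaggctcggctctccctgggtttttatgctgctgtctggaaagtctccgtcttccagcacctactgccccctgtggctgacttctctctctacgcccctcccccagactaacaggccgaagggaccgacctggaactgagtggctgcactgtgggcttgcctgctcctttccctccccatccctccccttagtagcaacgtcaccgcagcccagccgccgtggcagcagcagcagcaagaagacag
Clta, inner start, chr4:44012420-44012719, plus strand: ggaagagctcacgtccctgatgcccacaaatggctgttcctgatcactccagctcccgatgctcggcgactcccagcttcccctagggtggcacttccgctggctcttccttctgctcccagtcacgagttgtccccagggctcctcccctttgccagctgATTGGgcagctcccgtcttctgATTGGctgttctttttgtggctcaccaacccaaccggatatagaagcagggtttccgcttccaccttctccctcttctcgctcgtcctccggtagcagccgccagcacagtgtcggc
Dctn3, chr4:41723114-41723413, minus strand: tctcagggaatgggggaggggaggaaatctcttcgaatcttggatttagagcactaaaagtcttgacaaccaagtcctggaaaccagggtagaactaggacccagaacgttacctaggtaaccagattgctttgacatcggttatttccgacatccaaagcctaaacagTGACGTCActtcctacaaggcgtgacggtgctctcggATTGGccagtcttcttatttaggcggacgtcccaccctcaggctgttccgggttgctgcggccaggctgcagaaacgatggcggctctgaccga
All 4 windows hold the same sequence at the same numbers in GRCm39. The first window of Rusc2 is 70.0% G or C with 35 CpG, against a median of 52.7% and 7 CpG over the 32851 windows of the mouse table. It holds 2 GC boxes, which begin 105 and 90 bases before the start, and a CCAAT box 233 bases before it. A window that overlaps it (chr4:43381819-43382118, not printed) is 77.7% G or C with 44 CpG. It holds 2 GC boxes, 192 and 177 bases before its own start, and no CCAAT box. The inner window of Rusc2, at an annotated start farther inside the gene, is 61.3% G or C with 10 CpG and holds none of the motifs searched. The inner window of Clta holds 2 CCAAT boxes, 89 and 67 bases before its start, whereas the window at the outer start of Clta (chr4:44004193-44004492, 48.0% G or C) holds 1 GC box and no CCAAT box. Dctn3 holds a cyclic AMP response element 81 bases before the start and a CCAAT box 44 bases before it. Over all windows, 35.7% hold a GC box, 37.4% a CCAAT box and 1.79% a cyclic AMP response element. The letters CACGTG of the E-box are in 7.15% of all windows and TATAAA of the TATA box in 13.6%, and neither is in a window of the 6 genes that have one in the table (Rusc2, Clta, Chmp5, Stx17, Dctn3 and Capza2).

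The level of a gene is its CPM, the count after scaling to the effective size of the library. Rusc2 had 351, 293 and 350 CPM in SD livers (replicates 1 to 3), against 139, 145 and 114 CPM in NLD livers. Each SD mouse was above each NLD mouse. The means were 332 ± 33.4 CPM under SD and 133 ± 16.4 CPM under NLD (mean ± standard deviation, n = 3 each), which is a fitted log2 fold change of 1.32 with a standard error of 0.15, or 2.50-fold. Behind these levels stand 2075, 1995 and 2294 counts in SD livers and 808, 867 and 688 counts in NLD livers. The Poisson interval (95%, counting error only) was 1908 to 2085 for the lowest SD count and 810 to 927 for the highest NLD count. Replicate libraries differed by more than counting error, so these intervals are a description and no test of the difference. In bulk tissue, more RNA per cell and more cells of a type that holds the RNA cannot be told apart. Among the tested rows Rusc2 stood at the 91.0 percentile of mean CPM, although per kilobase of exon (29.3 CPM per kb over 7923 bp) it was the least abundant of the 9 genes. As its background, 0.289% of the 7261 rows passed an adjusted p under 0.05 (edgeR quasi-likelihood test, Benjamini-Hochberg), and 9.08% were higher in each SD than in each NLD library. At an agreeing position this last share was 13.2%.

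**Figure D1:**
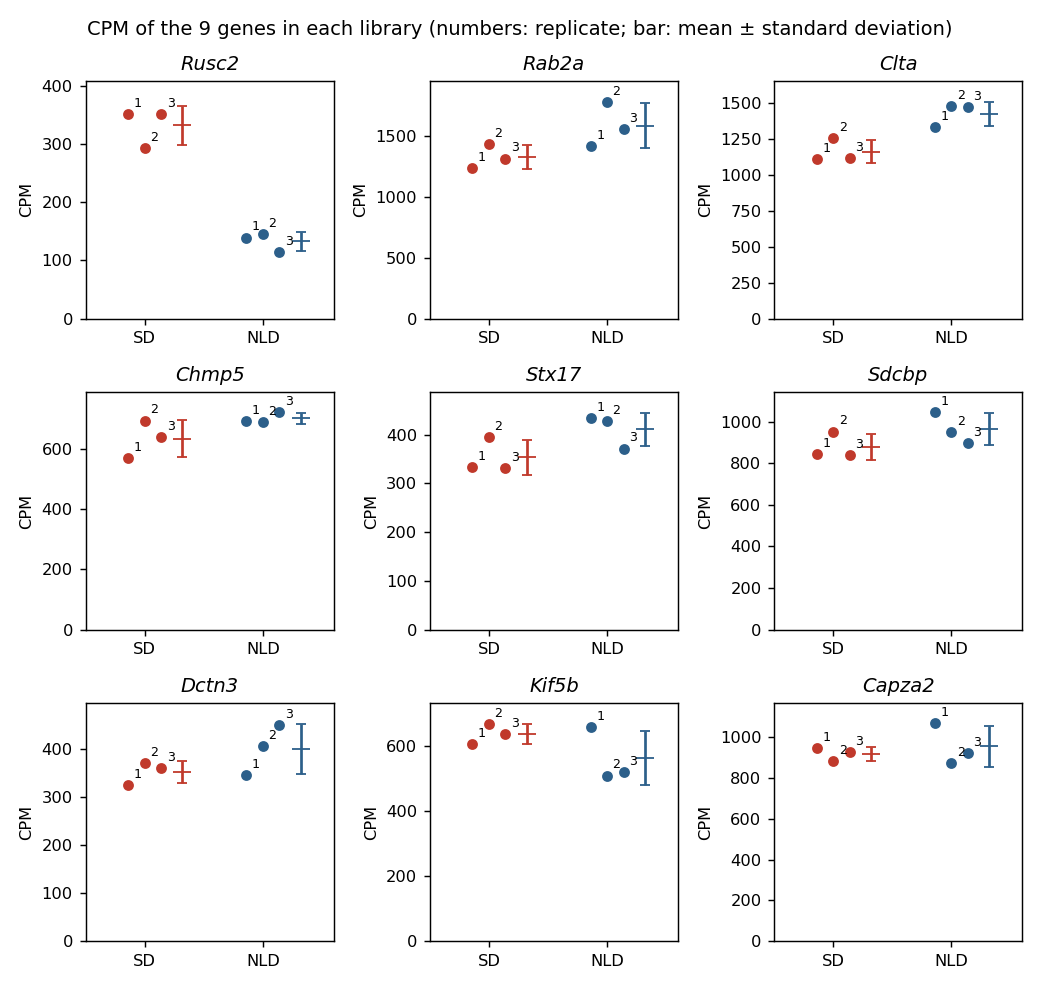
CPM of each of the 9 genes (vertical axes, from 0) in the 3 SD and the 3 NLD libraries, with the replicate number at each point and the mean ± standard deviation as a bar. Rusc2 lies at 293 to 351 CPM under SD and at 114 to 145 CPM under NLD, while the other genes overlap or, for Clta, lie lower under SD.

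The rise of Rusc2 was not seen in the other 8 genes. None of the 8 passed an adjusted p under 0.05 (adjusted p = 0.578 to 0.910, edgeR), 7 had a log2 fold change below 0 and 1 above it, and the median was -0.165, against 0.03 over all tested rows. The 95% interval of each of the 8 log2 fold changes ended below 1, a doubling, with the highest upper bound at 0.52 for Kif5b. Each thus ended below 1.32, the value of Rusc2, too. That value has its own standard error of 0.15 and may be raised by the choice of the gene, so it is no fixed mark. The lowest bound was -0.58 for Rab2a, so that a level under SD of 0.669 times that under NLD is still inside its interval. None of the 8 was higher in each SD than in each NLD library (9.08% of all tested rows were), and 1, Clta, was lower (7.93% of all tested rows were). At an unadjusted p under 0.05, which 8.48% of all tested rows met, stood 1 of the 8, again Clta. Among the tested rows at an agreeing position, as the 8 are, 13.2% were higher, 8.8% lower and 13.2% at that unadjusted p. The summed level of the 8 genes was 5970, 6649 and 6168 CPM in SD livers and 6991, 7110 and 6913 CPM in NLD livers. It was lower in each SD than in each NLD library, as were 7.93% of all single tested rows. The sum weighs the genes by their level, and of the 8 only Clta was lower in this way by itself. This sum was not tested.

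Rab2a, a small GTPase that acts between the endoplasmic reticulum and the Golgi, had the highest level of the 9 genes per kilobase of exon (304 CPM per kb). It had 1238, 1435 and 1318 CPM in SD livers, against 1418, 1783 and 1562 CPM in NLD livers. The groups overlapped, with SD replicate 2 above NLD replicate 1. The mean was 1330 ± 99.3 CPM under SD and 1588 ± 184 CPM under NLD (standard deviation, n = 3 each), and the log2 fold change was -0.26 (95% interval -0.58 to 0.07, edgeR adjusted p = 0.641).

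Clta, a light chain of clathrin, had 1110, 1255 and 1118 CPM in SD livers, against 1329, 1474 and 1470 CPM in NLD livers. It is the only one of the 9 genes with lower values in each SD library. The mean was 1161 ± 82.0 CPM under SD and 1424 ± 82.8 CPM under NLD (n = 3 each), with a log2 fold change of -0.30 (95% interval -0.58 to -0.01). This difference had an unadjusted p of 0.0434 in the edgeR fit and did not pass the adjustment over all rows (adjusted p = 0.578). The end of Clta overlaps that of Gne, which makes the precursor of sialic acid and runs on the other strand, and the strand setting of the counting is not given. Gne averaged 1843 CPM under SD and 1807 CPM under NLD (log2 fold change 0.03, adjusted p = 0.977, edgeR).

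Chmp5, which acts with the ESCRT-III complex at endosomes, had 569, 692 and 637 CPM in SD livers, against 691, 687 and 721 CPM in NLD livers. SD replicate 2 lay inside the NLD values and the other SD libraries below them. The log2 fold change was -0.14 (95% interval -0.44 to 0.15, edgeR adjusted p = 0.756). Sdcbp encodes syntenin, which joins syndecans to the ESCRT partner Alix in exosome formation. It had 843, 952 and 840 CPM in SD livers, against 1045, 949 and 896 CPM in NLD livers, with overlapping groups. Its log2 fold change was -0.13 (95% interval -0.43 to 0.16, edgeR adjusted p = 0.782). Chmp5 overlaps Bag1 and Sdcbp overlaps Nsmaf, and neither of these had an adjusted p under 0.05 (0.884 for Bag1 and 0.816 for Nsmaf, edgeR).

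Stx17, the SNARE that sits on autophagosomes and drives their fusion with lysosomes, had 334, 394 and 332 CPM in SD livers, against 433, 427 and 372 CPM in NLD livers. SD replicate 2 was above NLD replicate 3, and otherwise the SD values were lower. The log2 fold change was -0.22 (95% interval -0.54 to 0.11, edgeR adjusted p = 0.673). Rusc2 counts were 74.3% to 106% of Stx17 counts in SD livers and 30.7% to 33.9% in NLD livers, with no correction for gene length.

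Of the motor genes, Dctn3 encodes a subunit of dynactin, the cofactor of dynein. It had 325, 371 and 360 CPM in SD livers, against 346, 406 and 449 CPM in NLD livers, with overlapping groups and a log2 fold change of -0.19 (95% interval -0.53 to 0.16, edgeR adjusted p = 0.723). Its annotation overlaps Il11ra1, which averaged 461 CPM under SD and 508 CPM under NLD (adjusted p = 0.829, edgeR). Kif5b, the heavy chain of kinesin-1, was the only one of the 8 genes with a log2 fold change above 0. It lies on chromosome 18 from 6199099 to 6242174. It had 605, 667 and 636 CPM in SD livers, against 659, 509 and 520 CPM in NLD livers. NLD replicate 1 lay among the SD values and the other NLD libraries below them. The log2 fold change of Kif5b was 0.18 (95% interval -0.17 to 0.52, edgeR adjusted p = 0.740), and without NLD replicate 1 it was 0.31 (adjusted p = 0.321).

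Capza2, a subunit of the protein that caps the fast growing end of actin filaments, lies on chromosome 6, where its promoter window is shifted by 1 base between the builds. It had 947, 882 and 927 CPM in SD livers, against 1071, 875 and 923 CPM in NLD livers. NLD replicate 1 was the highest, and the other 5 libraries overlapped. The log2 fold change was -0.06 (95% interval -0.36 to 0.24, edgeR adjusted p = 0.910), and without NLD replicate 1 it turned to 0.031 (adjusted p = 0.929).

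**Figure D2:**
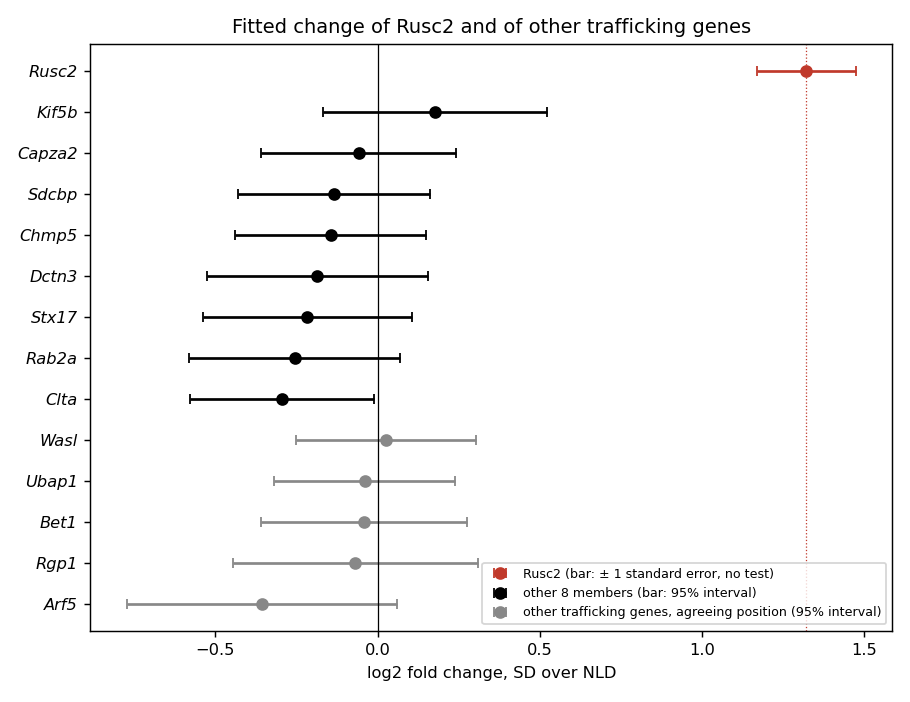
Fitted log2 fold change, SD over NLD (horizontal axis), of Rusc2 with ± 1 standard error, and of the other 8 genes and the 5 further genes of the trafficking lists tested at an agreeing position with their 95% intervals. Rusc2 lies at 1.32, marked by the dotted line, and the intervals drawn for the others end at 0.52 or below (Unc13b and Dync2h1, which are in no list, are not drawn).

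A ratio inside a library does not depend on how libraries are scaled. Rusc2 counts were 20.4% to 28.4% of Rab2a counts under SD and 7.30% to 9.80% under NLD. Relative to Clta they were 23.3% to 31.7% under SD and 7.76% to 10.4% under NLD. For Dctn3 the range was 79.0% to 108% under SD and 25.4% to 40.2% under NLD, and for Kif5b 43.9% to 58.1% under SD and 21.1% to 28.5% under NLD. The ratio was higher in each SD than in each NLD library for all 8 genes, which follows in large part from the choice of Rusc2.

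**Figure D3:**
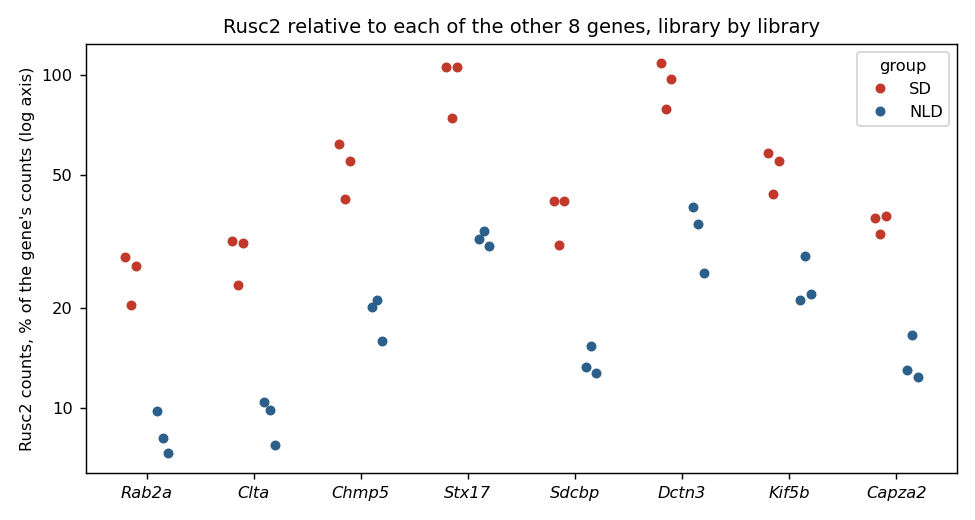
Rusc2 counts as a percentage of the counts of each of the other 8 genes (vertical log axis) in the 3 SD and the 3 NLD libraries, 1 point per library. SD points lie above NLD points for each gene, for example 33.2% to 37.8% of Capza2 under SD against 12.4% to 16.6% under NLD.

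Inside a group the other 8 genes varied little, with a coefficient of variation of 2.63% to 14.9%, and Rusc2 varied by 10.1% under SD and 12.3% under NLD. Over the 6 libraries, which share the difference in photoperiod, the log2 CPM of the 8 genes went together to unequal degrees. Pearson's r of the 28 pairs ran from -0.74 for Dctn3 with Kif5b to 0.94 for Stx17 with Sdcbp, with 0.92 for Rab2a with Clta. Kif5b ran against Clta (-0.67) and Rab2a (-0.72) and not against Capza2 (0.43). With only 6 points these values are a description and carry no test.

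The members share a position near the start of their chromosomes, which the choice fixed. Among all rows at such an agreeing position, 409 were tested. Apart from Rusc2, for which no call is given because it was chosen for its rise, none of these passed an adjusted p under 0.05 in edgeR. The shares that follow are over all 409 rows, that of Rusc2 among them. The unadjusted p under 0.05 was met by 13.2%. The groups did not overlap in 13.2% of these rows with higher values under SD and in 8.8% with lower values, and their median log2 fold change was 0.04.

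The neighbours of Rusc2 on chromosome 4 had log2 fold changes on both sides of 0. Within 1 Mb on either side, 34 other protein-coding rows were tested, none passed an adjusted p under 0.05 in edgeR, 2 were higher and 3 lower at an unadjusted p under 0.05 (8.48% of all tested rows met it, and 13.2% of those at an agreeing position), and the median log2 fold change was -0.06. In 2 of the 34 rows the values of each SD library were higher than those of each NLD library, and in 6 of the 34 they were lower. Higher and lower rows made up 9.08% and 7.93% of all tested rows, and 13.2% and 8.8% of those at an agreeing position. The nearest tested genes were Atp8b5, a lipid flippase, before Rusc2 (9.44 CPM under SD and 8.42 CPM under NLD, adjusted p = 0.887) and the kinase gene Tesk1 after it. Tesk1 had 249, 200 and 240 CPM in SD livers, against 207, 132 and 222 CPM in NLD livers, with overlapping groups (log2 fold change 0.30, adjusted p = 0.714, edgeR). Fam166b, which overlaps the end of Rusc2 on the other strand, had 24, 8 and 0 counts under SD and 0, 0 and 11 under NLD, too few to be tested and small beside the counts of Rusc2. The 2 higher rows were Unc13b and Reck, and the 6 lower ones were Ccl27b, Vcp, Stoml2, Hint2, Glipr2 and Clta, all but Clta named here after their values were seen. Unc13b, a priming factor of vesicle release, had 83.8, 86.0 and 80.3 CPM in SD livers, against 55.7, 37.8 and 38.5 CPM in NLD livers (log2 fold change 0.92, standard error 0.20, adjusted p = 0.273, edgeR). Reck, an inhibitor of matrix proteases, had 80.4, 163 and 93.3 CPM in SD livers, against 64.6, 41.6 and 41.3 CPM in NLD livers (log2 fold change 1.19, adjusted p = 0.426, edgeR).

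**Figure D4:**
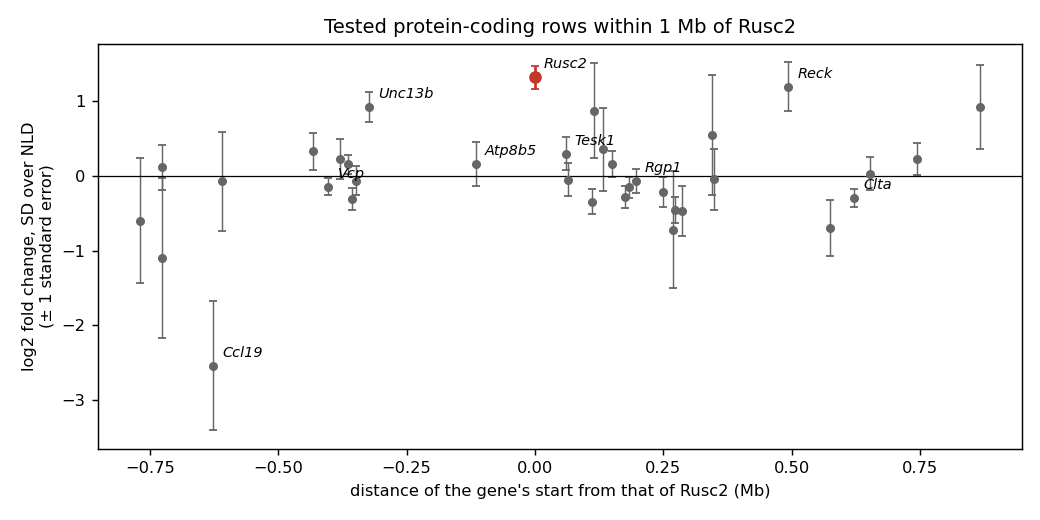
Log2 fold change, SD over NLD, with ± 1 standard error (vertical axis) of the tested protein-coding rows within 1 Mb of Rusc2, by the distance of the gene's start from that of Rusc2 in Mb (horizontal axis). Rusc2 at 1.32 stands between neighbours on both sides of 0, among them Unc13b at 0.92, Reck at 1.19 and Clta at -0.30.

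A wider set of trafficking genes was read by function. Apart from the 9 members, 347 rows carry the name of a Rab GTPase, a Rab regulator, a clathrin adaptor, an ESCRT, SNARE, motor, actin or coat gene, or a Rusc and AP-4 partner. Of these 124 were tested, and none passed an adjusted p under 0.05 in edgeR, while 5 were higher and 5 lower at an unadjusted p under 0.05. Over all tested rows 0.289% passed the adjusted and 8.48% the unadjusted threshold. In 8 of the 124 rows each SD library was higher and in 15 lower than each NLD library, against 9.08% and 7.93% of all tested rows. Their median log2 fold change was 0.03, against 0.03 over all rows, with 66 above 0 and 58 below. The median of the tested rows, members included, was 0.06 for 18 Rab GTPases, 0.01 for 18 Rab regulators and effectors, 0.14 for 23 clathrin and adaptor genes, -0.01 for 12 ESCRT and Alix-syntenin genes and -0.01 for 16 SNAREs and their regulators. It was -0.11 for 21 kinesin, dynein and dynactin genes, 0.03 for 7 actin capping, WASH and Arp2/3 genes, 0.01 for 15 COPI and COPII genes and 0.08 for 7 Rusc and AP-4 partners. Rusc2 is in the list of Rab regulators and in that of Rusc partners, so that both medians include the gene chosen for its rise. Most of these rows name genes whose position differs between the builds, so that a name stands there only for the row that carries it.

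Beside the members, 6 of these rows are at an agreeing position and 5 of them were tested. Arf5, a GTPase that recruits the COPI coat at the Golgi, had 788, 864 and 802 CPM in SD livers, against 819, 1074 and 1248 CPM in NLD livers (log2 fold change -0.36, adjusted p = 0.622, edgeR). Its NLD values were more scattered and overlapped those under SD. The remaining 4 were Rgp1, part of the exchange factor of Rab6, the ESCRT-I subunit Ubap1, Bet1, a SNARE between endoplasmic reticulum and Golgi, and Wasl, which switches on Arp2/3. Their log2 fold changes were -0.07 for Rgp1, -0.04 for Ubap1, -0.04 for Bet1 and 0.03 for Wasl (adjusted p = 0.916, 0.932, 0.939 and 0.960, edgeR), and their groups overlapped. Dync1i1, a dynein intermediate chain, had 4 counts in 1 SD library and none in the others and was not tested. The lists do not hold Unc13b of vesicle release or Dync2h1 of the dynein of cilia, which are at an agreeing position as well. Their 95% intervals of the log2 fold change were 0.45 to 1.39 for Unc13b and 0.56 to 1.43 for Dync2h1, which both include 1.32. Neither passed an adjusted p under 0.05 (0.273 and 0.170, edgeR). Both are named here after their values were seen. Dync2h1 was picked for its likeness to Rusc2, which largely fixes that its level was higher under SD.

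Among 354 rows at an agreeing position with a mean of at least 5 CPM, the log2 CPM most like that of Rusc2 over the 6 libraries belonged to Casd1 (r = 0.97), Aco1 (r = 0.97), Dync2h1 (r = 0.97), Dpy19l4 (r = 0.96) and Rbm12b2 (r = 0.93). All 5 were higher in each SD than in each NLD library, which a high r with Rusc2 largely fixes because its groups stand far apart, and none passed an adjusted p under 0.05 in edgeR. Dync2h1, the heavy chain of the dynein of cilia, had 65.9, 61.5 and 82.6 CPM in SD livers, against 39.2, 33.4 and 33.0 CPM in NLD livers (log2 fold change 0.99, adjusted p = 0.170, edgeR). Rbm12b2 had 143, 94.1 and 148 CPM in SD livers, against 64.8, 67.6 and 71.0 CPM in NLD livers (log2 fold change 0.92, adjusted p = 0.297, edgeR). Aco1, an aconitase of the cytosol that binds iron responsive elements when it lacks its cluster, differed by less, with 3575, 3587 and 3613 CPM in SD livers, against 2794, 2924 and 2893 CPM in NLD livers (log2 fold change 0.32, adjusted p = 0.504, edgeR). Casd1, which adds acetyl groups to sialic acid, had 395, 386 and 442 CPM in SD livers, against 314, 299 and 286 CPM in NLD livers (log2 fold change 0.45, adjusted p = 0.417, edgeR). Of the other members Kif5b was most like Rusc2 (r = 0.58) and Clta least (r = -0.93), at ranks 80 and 352 of the 354.

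**Figure D5:**
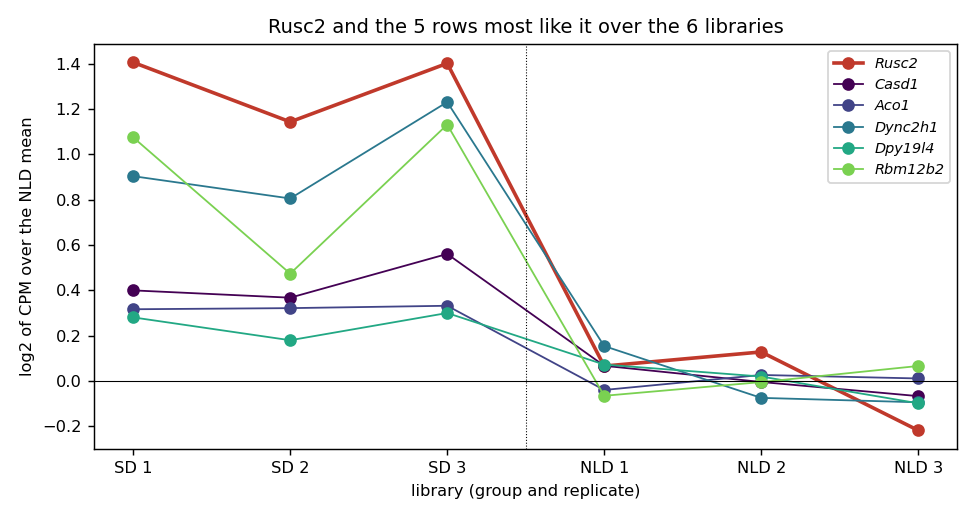
Log2 of CPM over the NLD mean (vertical axis) of Rusc2 and of the 5 rows at an agreeing position most like it, in the 3 SD and then the 3 NLD libraries (horizontal axis), with lines that only join the points of a gene. Rusc2 lies highest in each SD library, followed by Dync2h1 or Rbm12b2, and SD replicate 2 is the lowest SD library for Rusc2, Casd1, Dync2h1, Dpy19l4 and Rbm12b2.

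The libraries held 5548753 to 6932965 counts under SD and 5497797 to 6457190 counts under NLD. On the first principal component of log2 CPM (30.3% of the variance), the SD libraries lay between -44.7 and -13.3 and the NLD libraries at -14.8, 75.01 and 27.7. NLD replicate 2 thus stood apart and NLD replicate 1 lay inside the SD range, so this component did not separate the groups. The log2 fold change of Rusc2 was 1.38 without NLD replicate 2 and 1.36 without NLD replicate 1. In both fits the other 8 again had no adjusted p under 0.05 in edgeR. The labelled tissue was read against 24 hepatocyte markers, of which 13 were listed at 0 in all libraries, among them Ttr, Apoa1 and Fga. Nearly all marker rows in this paragraph name genes whose position differs between the builds, so a name stands there only for its row. The sums can therefore not be read as amounts of a cell type. The summed level of the 24 rows was 7085 to 11191 CPM under SD and 3510 to 5435 CPM under NLD, higher in each SD library. Of all single tested rows 9.08% were so too. Cyp7a1 held a large part of the sum, and without that row it was 3217 to 4144 CPM under SD and 2469 to 3110 CPM under NLD. The only hepatocyte marker at an agreeing position was Cyp7a1, which sets the rate of bile acid formation (5081 ± 1718 CPM under SD and 1723 ± 646 CPM under NLD, n = 3 each). Of 14 endothelial markers 8 were at 0, and their summed level overlapped, with 1962 to 2090 CPM under SD and 1720 to 2295 CPM under NLD. Of 12 markers of Kupffer cells and macrophages 11 were at 0, as were 6 of 12 of stellate cells, 3 of 8 of cholangiocytes, 8 of 12 of T, NK and B cells, 7 of 8 of neutrophils and 4 of 6 of erythroid cells. For T, NK and B cells the summed level was lower in each SD library (490 to 527 CPM under SD and 536 to 683 CPM under NLD). Of all single tested rows 7.93% were lower in this way, and only 2 of these 12 marker rows were tested. For Kupffer cells and macrophages the summed level overlapped (9.10 to 13.7 CPM under SD and 13.5 to 16.7 CPM under NLD). It overlapped likewise for stellate cells (159 to 339 CPM under SD and 151 to 264 CPM under NLD) and cholangiocytes (965 to 1050 CPM under SD and 951 to 1393 CPM under NLD), and for neutrophils and erythroid cells at no more than 10.03 CPM in any library. No marker row of these lists passed an adjusted p under 0.05 in edgeR. The part of cell composition in the level of Rusc2 was not tested.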

How the data were processed

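Liver RNA of 3 SD and 3 NLD ABX mice was sequenced. The values deposited by the authors are whole-number counts for each gene, not normalized. Per the methods, reads were trimmed with fastp, aligned with HISAT2 to GRCm39 and quantified with StringTie, whereas GRCm38 (mm10) is the build in the submitters' processing notes. Not given in the sources used here are the strand setting, the annotation release and how StringTie output became counts. Overlapping genes can therefore not be told apart. A count of 4 was more frequent than a count of 1, 2, 3 or 5 in each library, so a low count need not stand for single reads.

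Because the builds disagree, 32851 RefSeq promoter windows of GRCm38.p6 were compared with GRCm39, and 662 (2.015%) had the same sequence at the same numbers. A row was at an agreeing position when it lay in an unbroken stretch from the start of a chromosome where windows moved by at most 10 bp. On the chromosome of Kif5b, gene positions were used instead, with a median difference of at most 10 bp over 11 neighbouring rows. The gene's own difference could there be up to 2000 bp at its nearer end, a looser rule. This definition was chosen after seeing the data. Coordinates are those of GRCm39, matched by gene ID for 54749 of 55357 rows, except for the promoter windows, and none was converted between builds.

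The test was the two-sided quasi-likelihood test of edgeR 4.0.16 in R 4.3.3 (glmQLFit, robust, and glmQLFTest) after TMM scaling and filterByExpr by group, with Benjamini-Hochberg adjustment over 7261 rows. The standard error is the size of the log2 fold change divided by the root of F. For a single gene, an exact permutation test of 3 against 3 mice gives no p below 0.1. Per the methods, mice shared a cage at first and were then caged singly. Replicate libraries differed by more than sampling noise (chi-square between 34.8 and 71.4 per row) and were all counted. The members and lists were chosen with earlier results of these data known. Named were the 9 members, list rows that passed the test or otherwise up to 3 tested rows per list at an agreeing position with the smallest p, the 5 rows at an agreeing position with at least 5 CPM most correlated with Rusc2, genes overlapping a member, and the neighbours of Rusc2. As alternatives, scaling was done by RLE or by the upper quartile, the filter was dropped or replaced by at least 10 counts in all libraries, robust estimation was switched off, DESeq2 1.42.0 was run on the same rows and with its own filter, replicate numbers entered as a block, single libraries or the 10 most abundant rows were left out, and rows of 1 symbol were summed. A fit of only the rows at an agreeing position was added after seeing the data.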

Additional observations from a re-analysis of the deposited data

How the results depend on the processing

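Over 17 alternatives the log2 fold change of Rusc2 ran from 1.22 (without NLD replicate 3) to 1.39 (without SD replicate 2), and none of the other 8 genes passed an adjusted p under 0.05, with the lowest at 0.214 (Clta, DESeq2 on the same rows). Capza2 ran from -0.126 (without NLD replicate 2) to 0.031 (without NLD replicate 1) when a library was left out and so changed its sign once, while the other 7 kept their direction under all 17. The count of rows that passed over the whole table was less stable. It was 21 in edgeR, 44 without the filter on low counts, 137 with DESeq2 on the same rows and 89 with DESeq2 and its own filter. In a fit of only the rows at an agreeing position, chosen after seeing the data, none passed apart from Rusc2, for which no call is given. When a library was left out, the count was between 0 and 30. It was 0 without SD replicate 1, 2 or 3, with 437, 681 and 397 rows at an unadjusted p under 0.05. The cause was not tested. The labels number the mice of both groups, but do not say that a number pairs them. With a replicate block, 0 rows passed (766 at an unadjusted p under 0.05), Rusc2 had a log2 fold change of 1.32 and no call of the other 8 changed. Deviations of libraries with the same number correlated at 0.08, 0.07 and 0.04, and each library correlated best with its own number. These values were small and not tested, and no pairing is read from them. The intervals given, from 3 mice per group, show which changes remain compatible with the data. They are no limit of detection, since Clta did not pass the adjusted p although its interval left out 0.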
